A study of Mus musculus with 18 samples.

Results

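The Ube2 genes are the genes of mouse whose symbol begins with Ube2, most of which code for ubiquitin-conjugating enzymes (E2). They were taken from the mRNA-seq count table of round spermatids (RS) by their symbol, and symbols of pseudogenes marked -ps were left out. This gave 40 of the 54232 genes of the table, of which 37 are annotated as protein coding, 2 (Ube2d4 and Ube2nl) as processed pseudogenes and 1 (Ube2uos) as an antisense RNA. One member, Ube2cbp, is named for binding an E2 and is not itself an E2. RS of mice of 75 to 85 days were compared among 3 genotypes, with 6 libraries of each: wild type (WT), knock-out (KO) and knock-in (KI). The KO mice lack GRTH, a testis RNA helicase made from Ddx25, and the KI mice carry a human GRTH gene with a missense mutation and lack the phosphorylated form of the protein. RS were prepared from testes by digestion with collagenase and trypsin and sedimentation through a BSA gradient, and stranded libraries were made from total RNA without polyA selection. The question was which members of the family changed when GRTH or its phosphorylated form was missing, and where Ube2k stood among them.

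Ubiquitin reaches a protein in a relay. An activating enzyme (E1) loads ubiquitin onto a cysteine of an E2, and a ligase (E3) brings the loaded E2 to the substrate, so the E2 largely sets which kind of ubiquitin chain is built. In spermatids this system marks histones before they are replaced by transition proteins and protamines, and removes proteins and organelles as the cell elongates and sheds cytoplasm. Ube2k builds chains linked through the lysine of ubiquitin that marks proteins for the proteasome.

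Ube2k (ENSMUSG00000029203) lies at chr5:65537233-65598988 on the plus strand of GRCm38. The study examined the mRNAs of RS together with miRNAs, among them miR-26a, so the sequences that bear on that pairing are shown for Ube2k. They are also shown for Ube2j1, the only other member that changed and held a site, and for Ube2g1, with as many sites. The mature miR-26a-5p of RefSeq is shown first, with its seed (bases 2 to 8) in capitals. In the 3′ UTR sites below it, read from the transcripts of GENCODE M21, the capitals mark the reverse complement of the seed.
miR-26a-5p: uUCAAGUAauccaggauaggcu
Ube2k site 1, chr5:65595377-65595405, plus strand: ttgcatgcttgTACTTGActtcttagaac
Ube2k site 2, chr5:65595685-65595713, plus strand: aaaggaataaaTACTTGAtgttgcagtat
Ube2j1 site, chr4:33050510-33050538, plus strand: tttttggatatTACTTGAagaggaaagac
Ube2g1 site 1, chr11:72684109-72684137, plus strand: tactagtaaatTACTTGAgtttttcacga
Ube2g1 site 2, chr11:72684711-72684739, plus strand: aacaaacttaaTACTTGAaaatctcatgg

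The seed match TACTTGA occurred 2 times in the longest annotated 3′ UTR of Ube2k, which has 4039 bases, 2 times in that of Ube2g1 (2995 bases) and 1 time in that of Ube2j1 (2403 bases). One match each was found in Ube2d1, Ube2h, Ube2l3 and Ube2q1. In all, 7 of the 37 protein coding members (18.9%) held a match, beside 2032 of 21010 protein coding genes (9.7%), and the median 3′ UTR was 1463 bases in the members and 960 in all these genes, so the members had more sequence in which to match. A match is only a run of letters, and the levels of miRNAs were not measured in these libraries.

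Promoters are shown for Ube2k, for Ube2j1 as a second gene that fell and for Ube2c as the member that rose most. They run from 250 bases before to 50 bases after the gene start of RefSeq on GRCm38.p6. Capitals mark 4 motifs searched on both strands: the cAMP response element (CRE, TGACGTCA), which CREM binds in RS, its half-site TGACG, the CCAAT box and the CHR element of cell cycle genes (TTTGAA). The half-site is part of the CRE.
Ube2k promoter, chr5:65536995-65537294, plus strand: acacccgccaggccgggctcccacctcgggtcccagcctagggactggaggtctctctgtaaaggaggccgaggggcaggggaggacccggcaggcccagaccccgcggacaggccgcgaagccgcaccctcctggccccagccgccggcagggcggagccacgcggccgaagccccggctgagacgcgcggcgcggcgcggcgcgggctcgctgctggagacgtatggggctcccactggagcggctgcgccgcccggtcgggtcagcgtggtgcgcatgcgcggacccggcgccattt
Ube2j1 promoter, chr4:33031130-33031429, plus strand: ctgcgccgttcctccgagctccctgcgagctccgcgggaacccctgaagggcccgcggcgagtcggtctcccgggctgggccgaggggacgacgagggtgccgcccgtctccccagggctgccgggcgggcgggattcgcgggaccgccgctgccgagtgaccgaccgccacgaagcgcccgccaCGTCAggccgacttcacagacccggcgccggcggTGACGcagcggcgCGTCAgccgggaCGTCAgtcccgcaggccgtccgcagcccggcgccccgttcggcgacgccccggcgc
Ube2c promoter, chr2:164769679-164769978, plus strand: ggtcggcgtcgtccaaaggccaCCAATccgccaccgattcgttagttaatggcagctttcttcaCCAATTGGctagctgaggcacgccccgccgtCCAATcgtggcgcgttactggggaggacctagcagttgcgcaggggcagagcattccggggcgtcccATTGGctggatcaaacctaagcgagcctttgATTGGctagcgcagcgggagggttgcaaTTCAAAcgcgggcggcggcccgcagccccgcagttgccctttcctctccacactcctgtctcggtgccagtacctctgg

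None of these motifs was found in the window of Ube2k, which was 76.7% G and C, beside a median of 52.7% over 32851 promoters. The window of Ube2j1 held 4 CRE half-sites, which began at -65, -31, -18 and -6 from the gene start. That of Ube2c held 1 CHR element, at -29, and 6 CCAAT boxes, counted on both strands. Its boxes at -186 and -183 overlap on opposite strands and share a single marked stretch, CCAATTGG. A promoter was given for 31 members. Of these, 2 held a CRE (Ube2b and Ube2h, beside 1.8% of all promoters) and 9 a half-site (20.8% of all). Half-sites lay at Ube2b, Ube2f, Ube2j1 and Ube2n, which fell. They also lay at Ube2d2b, Ube2h, Ube2j2, Ube2s and Ube2v1, which the tests below did not call. A CCAAT box was held by 10 (37.4% of all) and a CHR element by 5 (17.9% of all). The CHR element lay at Ube2c, which rose, Ube2z, which rose in KI, Ube2f, which fell, Ube2d2b, not called, and Ube2uos, not tested. Whether a motif went with a change was not tested. Members were counted by gene, from any promoter of the gene, and the background by single promoter, so the units differ. The letters give no measure of whether a factor binds there.

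Each library held between 18766971 and 26776555 counts on genes. Ddx25 was at 567 ± 24.7 CPM (SD, n = 6) in WT, between 47.7 and 90.9 CPM in KO and between 0.0456 and 0.519 CPM in 5 KI libraries, but at 56.9 CPM in the library labelled KI 4, which lay inside the KO range. That library was the closest of all to KO 2. Unusually close pairs within WT were WT 1 and WT 2, WT 3 and WT 4, and WT 5 and WT 6. In the mutants KO 4 was close to KO 5, KI 1 to KI 2 and KI 3 to KI 5. The library labelled KI 4 is therefore named by its label, and separate values without it are given for Ube2k, Ube2a and Ube2dnl2. The labels do not say that the libraries come from separate animals, so p-values measure the spread between these libraries. Every WT library belongs to a close pair, so the 6 WT libraries may hold fewer independent samples, and n counts libraries. Of 12 RS markers, such as Acrv1, all were expressed, 2 fell in KO and 5 in KI, none past 1 log2 unit. All 12 markers of elongating spermatids, such as the protamine genes Prm1 and Prm2, fell past 1 log2 unit in both, and their summed level lay between 16200 and 22250 CPM in WT, between 1899 and 4767 CPM in KO and between 2507 and 3863 CPM in KI. Of 8 Leydig cell markers, the 7 that were tested rose by any amount in both, from a summed median of 11.2 CPM in WT to 41.6 CPM in KO and 33.4 CPM in KI, and none was at or under 3 counts in every library. Of 12 spermatocyte markers 5 rose and 1 fell in KO, and 4 rose and 2 fell in KI. Of 9 tested spermatogonium markers 3 rose in KO and 2 in KI, with none lower, and their summed level lay between 58.4 and 71.8 CPM in WT, between 64.9 and 107 CPM in KO and between 59.9 and 113.1 CPM in KI. Of 5 endothelial markers 2 rose in each mutant, with none lower. Of 9 tested Sertoli cell markers 0 rose and 2 fell in KO and 1 rose and 2 fell in KI, of 4 of myoid cells 2 rose and 1 fell in KO and 1 rose and 1 fell in KI, and of 6 of macrophages 2 rose and 1 fell in each. These shifts moved with every fall and rise described here, and their part in them was not tested. In such bulk libraries, fewer cells of a type and less RNA per cell cannot be told apart.

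Levels are normalized CPM, a count scaled to the size of its library, and between genes they are compared only per kilobase of exonic length. That length joins all annotated exons of a gene, so the order depends on the annotation. Ube2d3, with 24499 exonic bases, ranked 16 per kilobase in WT but 3 by CPM. Ube2d2a was divided by 2483 bases, whereas its exons in GENCODE M21 cover 11565 bases. In WT the highest levels per kilobase were those of Ube2d2b, a relative of the broadly acting enzyme Ube2d2a, at 139.8 ± 13.6 CPM per kb (SD, n = 6), and of Ube2j1, anchored in the membrane of the endoplasmic reticulum, at 106 ± 15.9 CPM per kb. Their libraries overlapped each other and lay above those of every other member. Next came Ube2n at 79.1 CPM per kb, then Ube2u at 55.1, Ube2b at 47.8, Ube2m at 42.1 and Ube2k at 36.3 ± 5.18, with Ube2s at 35.02 and Ube2d2a at 27.8 below it. From Ube2n to Ube2d2a each of these genes overlapped the next one named. Ube2k itself lay wholly below Ube2n and Ube2u and overlapped Ube2b, Ube2m, Ube2s and Ube2d2a, so its place among these 4 was not fixed by more than the spread of the libraries. Ube2k was at rank 7 by its WT mean, and in single WT libraries it ranked between 6 and 9.

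In the mutants Ube2k left this upper group. Its mean fell to rank 20 in KO, between 18 and 21 in single libraries, and to rank 19 in KI, between 19 and 20. Ube2d2b remained at rank 1 in both. At the other end, 5 members did not pass the filter on low counts and were not tested: Ube2l6, an E2 of the modifier ISG15, and Ube2d4, Ube2nl, Ube2ql1 and Ube2uos. None of these 5 exceeded 0.437 CPM in any library.

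**Figure D1:**
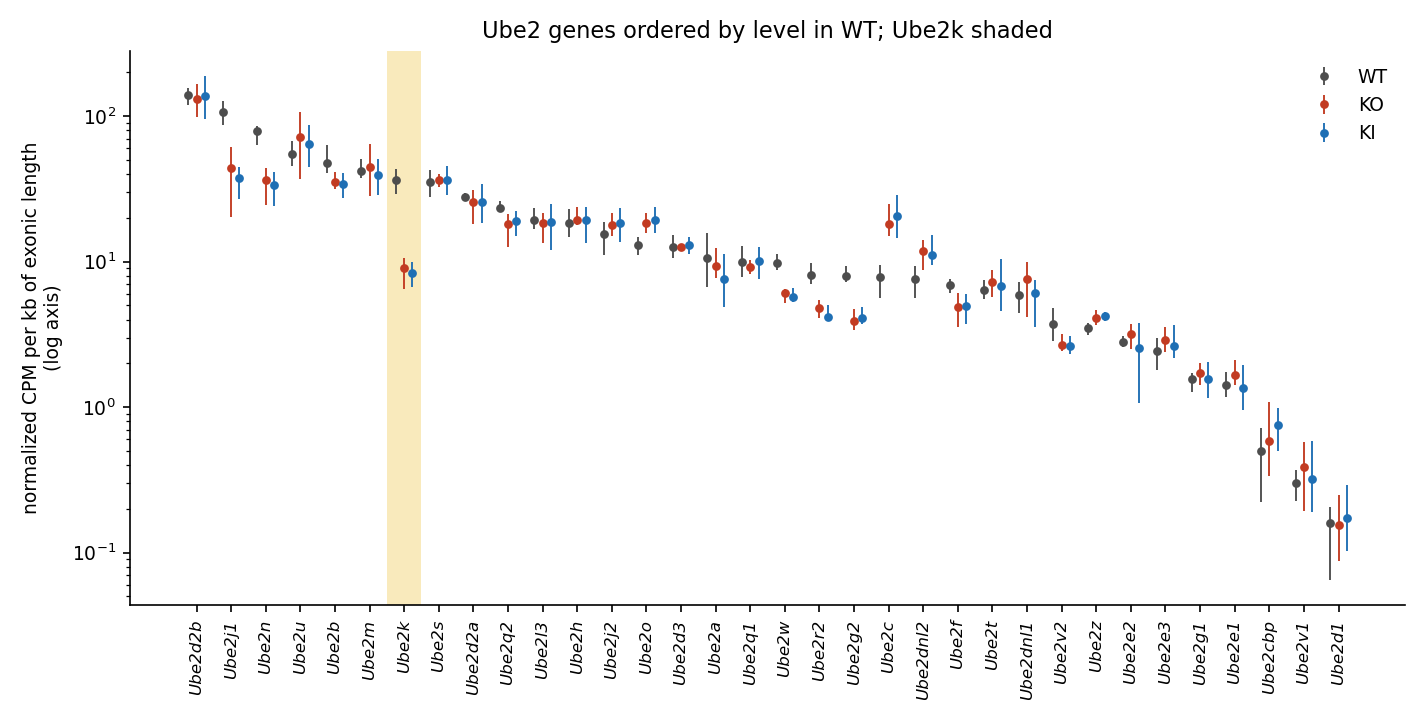
Level of 34 of the 35 tested Ube2 genes in RS, as normalized CPM per kilobase of exonic length on a log axis, ordered by the WT mean. Points are means and bars run from the lowest to the highest of 6 libraries of WT (grey), KO (red) and KI (blue). Ube2k, shaded, stands at 36.3 CPM per kb in WT and leaves its neighbours downward in both mutants.

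Of the 35 tested members, 10 fell and 3 rose in KO, and 9 fell and 4 rose in KI, by edgeR's quasi-likelihood test for a change of any amount with a Benjamini-Hochberg adjusted p under 0.1. Over all 21058 genes tested the same test called 13.5% lower and 16.4% higher in KO, and 15.4% lower and 16.1% higher in KI. As shares of the tested members these were 28.6% lower and 8.6% higher in KO, and 25.7% lower and 11.4% higher in KI, and the difference from all genes was not tested. Against a change of more than 1 log2 unit (edgeR's glmTreat), Ube2k was the only member called, lower in KO and in KI, where the background was 1.13% lower and 0.598% higher in KO and 1.43% lower and 0.522% higher in KI. The libraries of the mutant and of WT did not overlap for 10 members in KO and 11 in KI, beside 13.1% and 13.9% of all genes. The median member was at a log2 fold change of -0.01 in KO and -0.02 in KI, beside 0.03 and 0.05 over all genes. KO and KI were compared with the same WT libraries, so their results are not independent of each other.

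The 9 members that fell in both mutants were Ube2b, Ube2f, Ube2g2, Ube2j1, Ube2k, Ube2n, Ube2r2, Ube2v2 and Ube2w, and Ube2q2 was called lower in KO. Those that rose in both were Ube2c, Ube2dnl2 and Ube2o, and Ube2z was called higher in KI. In KI against KO, 0 members were called by either edgeR test or by DESeq2, and 0 had an unadjusted p under 0.05. Over all genes 0.0997% were called for any amount and 0.00475% past 1 log2 unit. The log2 fold changes of KI against KO ran from -0.33 to 0.38 over the members, and that of Ube2k was -0.11 with a standard error of 0.14.

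**Figure D2:**
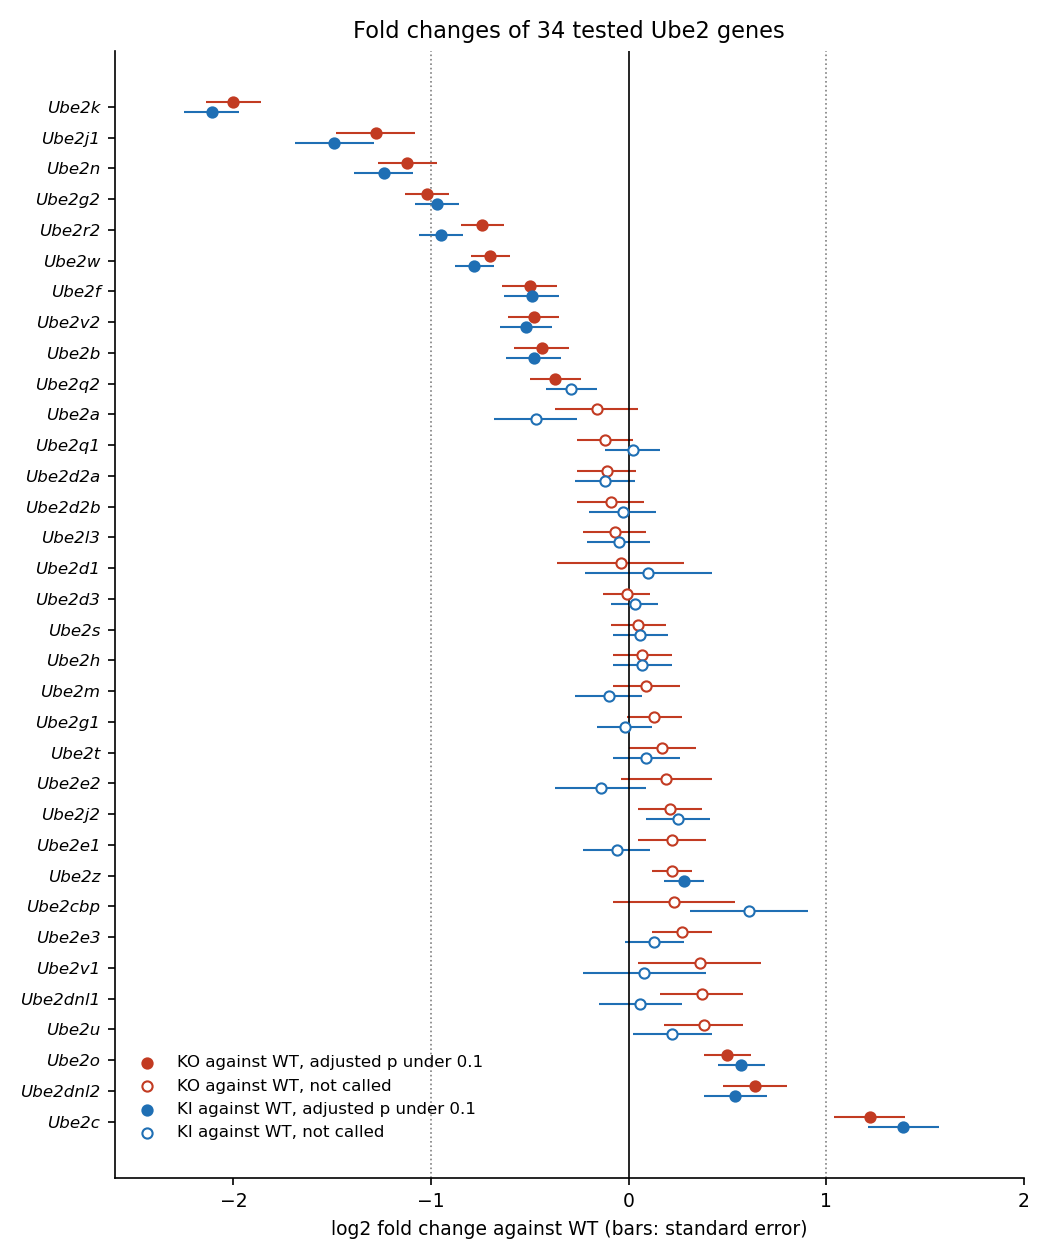
Log2 fold changes of 34 of the 35 tested Ube2 genes in KO (red) and KI (blue) against WT, with bars of 1 standard error. Filled points have an adjusted p under 0.1 for a change of any amount, and dotted lines mark 1 log2 unit. Ube2k stands lowest, at -2.0 and -2.11, Ube2c stands highest, at 1.22 and 1.39, and most members lie near 0.

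Ube2k belongs with Ube2r2, Ube2g1 and Ube2g2 to the builders of proteasome-directed chains. In WT its level lay between 230.7 and 342.5 CPM, with a median of 283 CPM. It lay between 51.5 and 83.2 CPM in KO (median 74.2) and between 52.9 and 78.5 CPM in KI (median 69.3). Every mutant library was far below every WT library, and the mutants overlapped fully. Ube2k fell from 286 ± 40.8 CPM (SD, n = 6) to 71.6 ± 10.9 CPM in KO, which is -2.0 ± 0.14 (SE) on the log2 scale, with an adjusted p of 3.82e-05 against 1 log2 unit (glmTreat). In KI it fell to 66.2 ± 10.2 CPM, or -2.11 ± 0.14 (SE) on the log2 scale, with an adjusted p of 7.58e-06 (glmTreat). These are 3.99-fold and 4.32-fold falls, the largest among the members tested. Without the library labelled KI 4, itself at 72.2 CPM, the KI value was -2.14.

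The other builders of such chains did not move as one. Ube2g2, which serves the degradation of proteins of the endoplasmic reticulum, lay between 17.8 and 22.7 CPM in WT (median 19.1), between 8.23 and 11.6 CPM in KO (median 9.36) and between 9.02 and 11.9 CPM in KI (median 9.55). The mutants did not reach the WT range, and the log2 fold change was -1.02 in KO (adjusted p = 7.12e-07, edgeR) and -0.97 in KI (adjusted p = 1.27e-06, edgeR). Of its exonic bases, 10.3% are shared on the same strand with other annotated genes, whose reads cannot be told apart there. Ube2r2, a partner of cullin ligases, fell by 0.74 and 0.95 on the log2 scale, from 33.9 CPM to 20.2 CPM in KO and 17.5 CPM in KI. Ube2g1, with as many seed matches as Ube2k, was at 7.20 ± 0.802 CPM in WT, 7.89 ± 0.991 CPM in KO and 7.10 ± 1.36 CPM in KI and was not called (adjusted p = 0.551 and 0.947, edgeR). Together the 4 genes summed to 346.5 ± 40.2 CPM in WT, 109.3 ± 12.4 CPM in KO and 100.7 ± 11.5 CPM in KI.

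**Figure D3:**
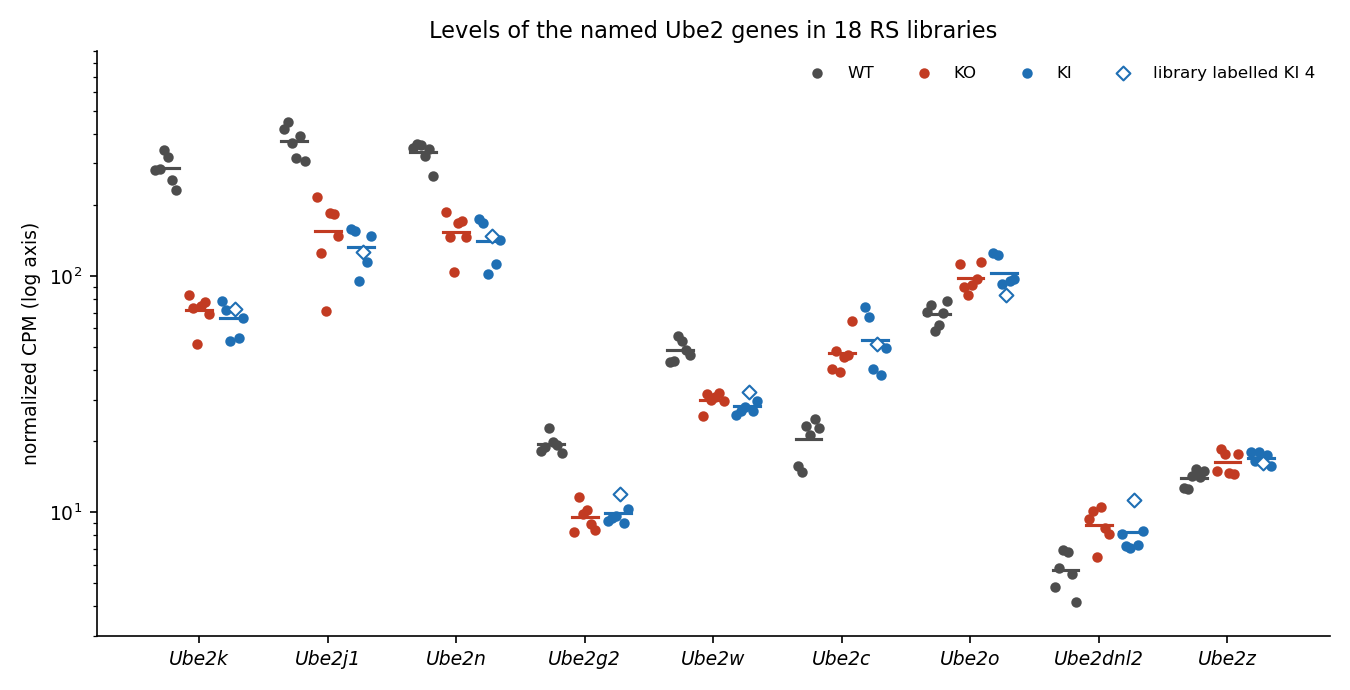
Normalized CPM (log axis) of 9 Ube2 genes in each library of WT (grey), KO (red) and KI (blue), with the mean as a line and the library labelled KI 4 as an open diamond. Ube2k, Ube2j1, Ube2n, Ube2g2 and Ube2w lie lower in all mutant libraries than in any WT library, and Ube2c and Ube2o lie higher.

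Ube2n, which pairs with Ube2v1 or Ube2v2 to build chains used in signalling and DNA repair, also fell. Its level lay between 266 and 362 CPM in WT (median 346), between 103.9 and 187 CPM in KO (median 157) and between 102 and 174 CPM in KI (median 145). No mutant library reached the WT range. On the log2 scale this was -1.12 ± 0.15 (SE) for KO and -1.24 ± 0.15 for KI, with adjusted p of 1.19e-05 and 2.75e-06 (edgeR). Ube2v2 fell by 0.48 and 0.52, from 26.8 CPM to 19.2 and 18.6 CPM, with libraries that overlapped WT. Ube2v1 was near 1 CPM in every genotype and was not called, and 61.5% of its exonic bases are shared with a gene model on the same strand.

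The pair of membrane-anchored enzymes of the endoplasmic reticulum divided. Ube2j1, which is known to be needed for male fertility, lay between 306 and 447 CPM in WT (median 379), between 71.5 and 217 CPM in KO (median 165) and between 95.5 and 158 CPM in KI (median 137). The WT range was above both mutants, and KO 3 was the lowest of all libraries. The log2 fold change was -1.28 in KO (adjusted p = 6.83e-05, edgeR) and -1.49 in KI (adjusted p = 9.52e-06, edgeR). Neither passed the test against 1 log2 unit (adjusted p = 1 and 0.384, glmTreat), although without KO 3 the KI value was called there (adjusted p = 0.0868). Its relative Ube2j2 was at 68.0 ± 14.8 CPM in WT, 78.9 ± 10.7 CPM in KO and 80.8 ± 18.6 CPM in KI and was not called. Ube2j1 and Ube2n thus began at levels above that of Ube2k per kilobase and ended above it.

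The Rad6 enzymes Ube2a and Ube2b attach ubiquitin to histones and to PCNA, and loss of Ube2b is known to make male mice infertile. Ube2b fell by 0.44 in KO and 0.48 in KI on the log2 scale, from 101.6 ± 21.2 CPM to 74.8 ± 7.42 and 72.8 ± 12.9 CPM, with libraries that overlapped WT (adjusted p = 0.0244 and 0.0137, edgeR). When close libraries were summed it was no longer called (adjusted p = 0.146 and 0.162). Ube2a, on the X chromosome, was at 23.9 ± 8.02 CPM in WT, 21.4 ± 3.81 CPM in KO and 17.2 ± 5.43 CPM in KI and was not called (adjusted p = 0.653 and 0.11, edgeR). Without the library labelled KI 4 it was called lower in KI, with a log2 fold change of -0.62 (adjusted p = 0.0359, edgeR), and so it was without KI 1 (adjusted p = 0.0888), WT 5 (0.0699) or WT 6 (0.0487).

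Among the E2s of ubiquitin-like modifiers, Ube2m, an enzyme of NEDD8, was at 99.1, 105.9 and 92.7 CPM in WT, KO and KI and was not called. Ube2f, the other enzyme of NEDD8, fell by 0.50 in KO and 0.49 in KI, from 61.2 ± 5.86 CPM to 43.2 ± 9.19 and 43.7 ± 6.50 CPM, and its mutant libraries did not reach WT. With close libraries summed the KI call was lost (adjusted p = 0.134).

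The UBCH5 and UBE2E enzymes, which work with many ligases, have 9 members in the family, of which 8 were not called in either mutant. Their sum was 654 ± 75.8 CPM in WT, 641 ± 57.4 CPM in KO and 653 ± 118 CPM in KI. Ube2d3 was at 310 ± 48.4, 307 ± 15.8 and 317 ± 34.5 CPM and not called in the mutants (adjusted p = 0.959 and 0.894, edgeR). Ube2d2b was at 235, 219.6 and 229.6 CPM. The member that rose, Ube2dnl2, is an X-linked relative of the UBCH5 genes. It lay between 4.18 and 6.91 CPM in WT (median 5.66), between 6.46 and 10.5 CPM in KO (median 8.95) and between 7.03 and 11.3 CPM in KI (median 7.71), and only the KO libraries overlapped WT. Its log2 fold change was 0.64 in KO (adjusted p = 0.00458, edgeR) and 0.54 in KI (adjusted p = 0.0150, edgeR), or 0.42 in KI without the library labelled KI 4. Reads that map to several places were not counted, so the levels of these close copies are uncertain.

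Ube2c and Ube2s serve the anaphase-promoting complex, Ube2c by starting chains and Ube2s by extending them. Ube2c lay between 14.7 and 24.8 CPM in WT (median 21.9), between 39.1 and 64.7 CPM in KO (median 45.7) and between 38.0 and 74.1 CPM in KI (median 50.5). All mutant libraries were above all WT libraries. It rose by 1.22 ± 0.18 (SE) log2 units in KO and by 1.39 ± 0.18 in KI, with adjusted p of 2.47e-05 and 3.98e-06 (edgeR), and did not pass the test against 1 log2 unit (adjusted p = 1 and 0.574, glmTreat). Ube2s was at 180.1, 185.9 and 187.4 CPM and Ube2t, an enzyme of the Fanconi pathway, at 31.0, 34.9 and 32.9 CPM, and neither was called.

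Among the remaining members, Ube2w, which attaches ubiquitin to the N terminus of proteins, lay between 43.4 and 55.9 CPM in WT (median 47.5), between 25.5 and 32.0 CPM in KO (median 30.3) and between 25.9 and 32.3 CPM in KI (median 27.4). The groups of mutants stayed below WT, with log2 fold changes of -0.70 in KO (adjusted p = 1.72e-05, edgeR) and -0.78 in KI (adjusted p = 3.83e-06, edgeR). Ube2o, a large enzyme that acts as E2 and E3 at once, lay between 58.7 and 78.4 CPM in WT (median 70.1), between 83.2 and 114 CPM in KO (median 94.5) and between 83.4 and 125 CPM in KI (median 96.2). It was higher in every mutant library, by 0.50 in KO (adjusted p = 0.00449, edgeR) and 0.57 in KI (adjusted p = 0.00150, edgeR). Ube2z, which takes ubiquitin from the activating enzyme Uba6, lay between 12.5 and 15.2 CPM in WT (median 14.2), between 14.6 and 18.5 CPM in KO (median 16.3) and between 15.7 and 18.03 CPM in KI (median 16.96). Its KO libraries overlapped WT and its KI libraries did not, with log2 fold changes of 0.22 (adjusted p = 0.113, edgeR) and 0.28 (adjusted p = 0.0425, edgeR).

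Ube2q2 fell by 0.37 in KO (adjusted p = 0.0417, edgeR) and was at -0.29 in KI (adjusted p = 0.111, edgeR). The KO call was lost when the close libraries were summed (adjusted p = 0.200) or without KO 2 (adjusted p = 0.104), and a KI call was gained without KO 3 (adjusted p = 0.0627), KI 1 (0.0908) or KI 2 (0.0752). Ube2h, Ube2l3, Ube2q1 and Ube2u were not called. Ube2u lay between 56.8 and 163 CPM in KO, beside 70.1 to 104.5 CPM in WT, the widest spread of these, and without KO 3 it was called higher in KO, with a log2 fold change of 0.51 (adjusted p = 0.0387, edgeR). Of the 7 members with a miR-26a seed match, Ube2k and Ube2j1 fell, and Ube2d1, Ube2g1, Ube2h, Ube2l3 and Ube2q1 were not called, with log2 fold changes from -0.12 to 0.13 in both mutants. The share that fell was 28.6% in each mutant, beside 28.6% of all tested members in KO and 25.7% in KI. These 7 are part of the tested members and are few. Ube2k and Ube2j1 had the largest falls of the family in both mutants. Whether a match went with a fall was not tested.

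**Figure D4:**
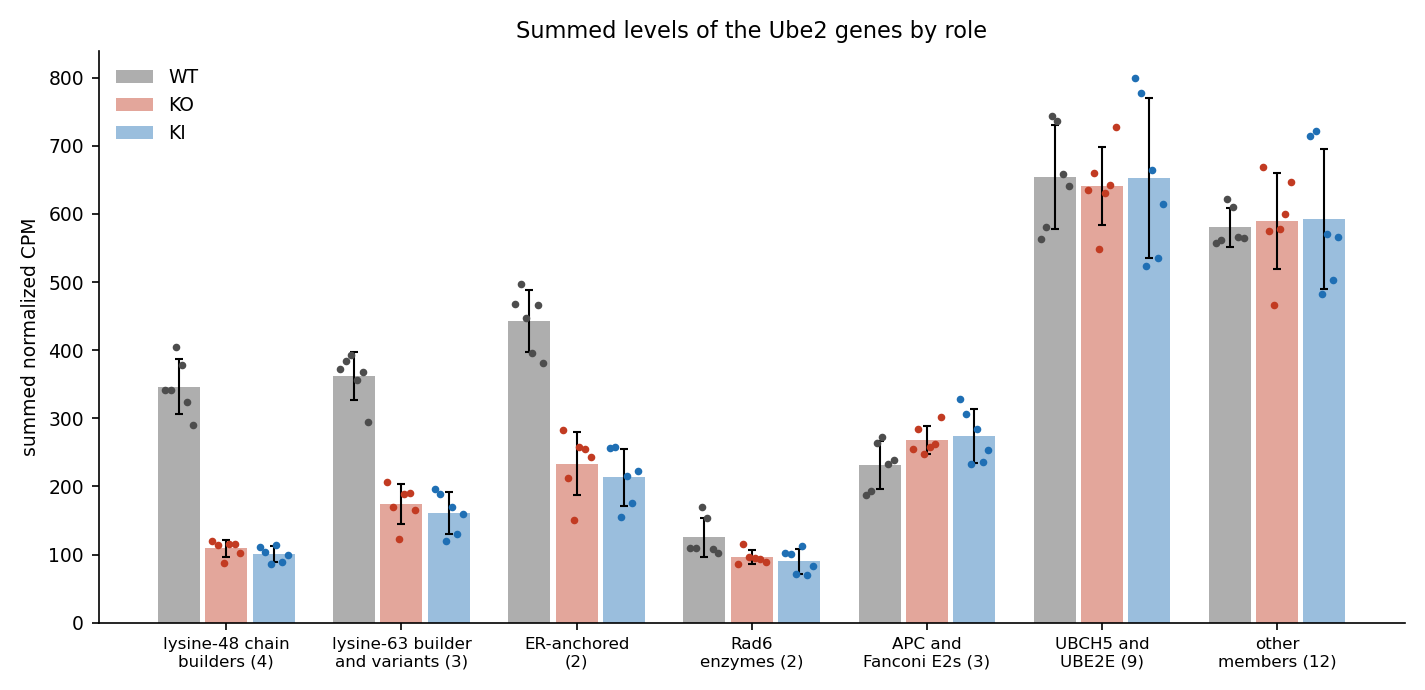
Summed normalized CPM of the Ube2 genes by role, with the number of members in each in brackets, in WT (grey), KO (red) and KI (blue). Bars are means with the SD and points are the 6 libraries. Ube2cbp, at about 1 CPM, and the E2s of ubiquitin-like modifiers are not drawn. Both groups of chain builders and the enzymes anchored in the endoplasmic reticulum (ER) are lower in all mutant libraries, and the UBCH5 and UBE2E group, at 654, 641 and 653 CPM, is level. Single genes make up most of the 3 lower sums. In WT these are Ube2k (286 of 346.5 CPM), Ube2n (333.9 of 361.5 CPM) and Ube2j1 (374.5 of 442.6 CPM). In the same groups Ube2g1, Ube2v1 and Ube2j2 were not called.

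Over all 40 members the summed level was 3083 ± 222 CPM (SD, n = 6) in WT, from 2831 to 3422 CPM. It was 2437 ± 229 CPM in KO, from 1999 to 2624 CPM, and 2405 ± 394 CPM in KI, from 1946 to 2875 CPM, so that KO did not overlap WT and KI did. Ube2k made up 9.25% ± 0.783 of the sum in WT, 2.93% ± 0.258 in KO and 2.76% ± 0.144 in KI. Without Ube2k the sum was 2797 ± 186, 2366 ± 220 and 2339 ± 384 CPM.

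Across the 18 libraries, the log2 CPM of Ube2n followed that of Ube2k most closely (Pearson r = 0.97), and then those of Ube2g2 (0.94) and Ube2w (0.94). The lowest values were those of Ube2c (-0.85) and Ube2o (-0.78). The libraries fall into WT and mutants, share their scaling and are partly close pairs, so these values mostly restate the difference from WT and are given as a description. Within a genotype, over 6 libraries, Ube2n was at 0.64 in WT, 0.98 in KO and 0.98 in KI. Ube2j1 was at 0.10, 0.95 and 0.88, whereas Ube2g2 was at 0.82, -0.23 and 0.27 and Ube2w at 0.64, -0.21 and 0.08. Some members that did not fall also reached high values in a mutant. Ube2d3 was at 0.55, 0.17 and 0.97, Ube2u at -0.33, 0.92 and 0.74 and Ube2c at -0.08, 0.15 and 0.92. Ube2t, by contrast, was at -0.79, -0.8 and -0.93. High values within a mutant were thus not particular to members that fell. Ube2k, Ube2n and Ube2j1 were each lowest in KO 3 among the KO libraries. So were several members that did not fall, such as Ube2d2b, Ube2l3, Ube2m and Ube2u, whereas Ube2t was highest in that library.

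**Figure D5:**
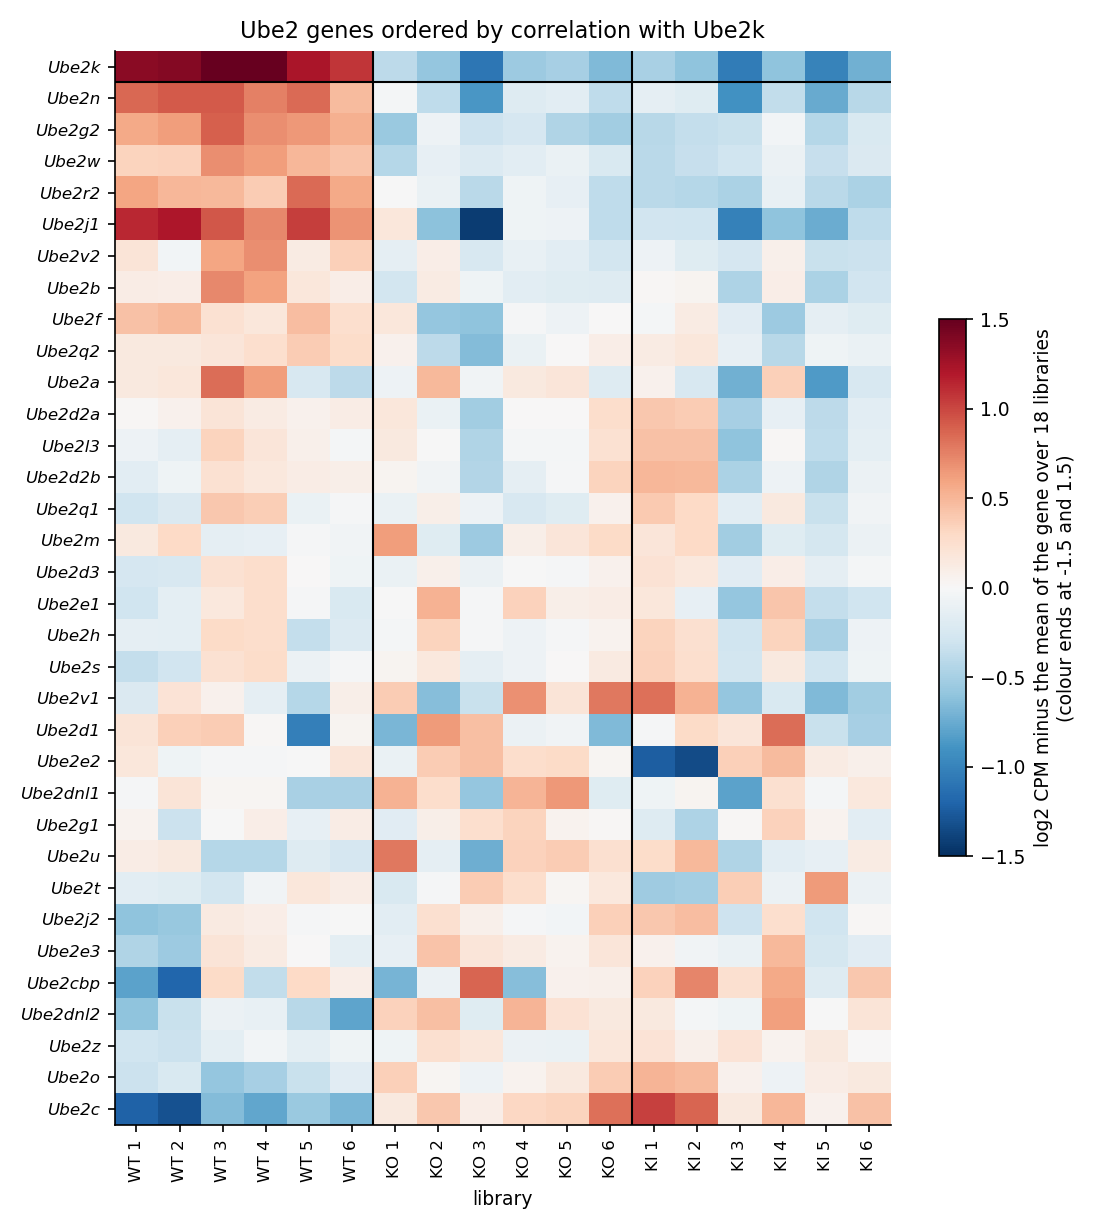
Log2 CPM of Ube2k and 33 other tested Ube2 genes in each of 18 libraries, shown as the difference from the mean of the gene, ordered from the most to the least correlated with Ube2k. Red is above and blue below the mean, and the colour scale ends at 1.5 log2 units either way. The upper rows are red in WT and blue in the mutants, the last row, Ube2c, is the reverse, and the middle rows differ little by genotype.

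The partners of these enzymes were examined in 10 lists with 158 entries, of which 156 were tested. In KO 34 rose and 29 fell by any amount, and 0 rose and 3 fell past 1 log2 unit, and in KI 31 rose and 35 fell, and 0 rose and 6 fell past 1. As shares of the entries tested, 21.8% rose and 18.6% fell in KO and 19.9% rose and 22.4% fell in KI, beside 16.4% and 13.5% of all genes in KO and 16.1% and 15.4% in KI, and the difference from all genes was not tested. The counts of the single lists stand against the same background. The median log2 fold change of a list lay between -0.36 and 0.27 in KO and between -0.44 and 0.26 in KI, beside 0.03 and 0.05 over all genes. Of 14 genes of ubiquitin and its relatives 5 fell in KO and 6 in KI, with none higher. Of 10 tested E1 genes 3 rose and 1 fell in KO, and 2 rose and 1 fell in KI, none past 1 log2 unit.

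Of 22 partners in degradation at the endoplasmic reticulum, where Ube2j1 and Ube2g2 act, 6 rose and 5 fell in KO and 5 rose and 7 fell in KI. Herpud1, a stress-induced scaffold of this pathway, fell from 159 ± 16 CPM to 51.7 ± 7.24 CPM in KO (log2 fold change -1.62, adjusted p = 0.00133, glmTreat) and 52.5 ± 5.42 CPM in KI (-1.60, adjusted p = 0.00169, glmTreat). Its relative Herpud2 passed 1 log2 unit in KI (-1.44, adjusted p = 0.0717, glmTreat) and fell by nearly as much in KO without passing it (-1.38, adjusted p = 0.188, glmTreat). Of 18 partners of NEDD8, 3 rose and 4 fell in KO, and 3 rose and 5 fell in KI. Dcun1d1, which helps load NEDD8 onto cullins, fell from 447.8 ± 49.6 CPM to 140.2 ± 38.1 CPM in KO (-1.68, adjusted p = 0.0148, glmTreat) and 124 ± 15 CPM in KI (-1.85, adjusted p = 0.00142, glmTreat).

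Of a list of 16 genes, which holds ligases and proteases of SUMO and Rangap1, a protein of the nuclear pore that carries SUMO, 4 rose and 2 fell in KO and 3 rose and 2 fell in KI. Rangap1 fell from 454 ± 40.5 CPM to 152.8 ± 32.5 CPM in KO (-1.57, adjusted p = 0.0145, glmTreat) and 139.7 ± 10.9 CPM in KI (-1.70, adjusted p = 0.00178, glmTreat). The list of 16 genes of ligases that act on histones or with the Rad6 enzymes had 6 rises and 1 fall in each mutant. Among 17 genes of the anaphase-promoting complex 2 rose and 4 fell in KO and 2 rose and 5 fell in KI. The 13 RING-between-RING ligases had 1 rise and 2 falls in KO and 2 rises and 2 falls in KI. For 23 HECT ligases, 7 rose and 2 fell in KO and 6 rose and 2 fell in KI. Among 7 E2s and relatives with other symbols, 2 rose and 3 fell in KO and 2 rose and 4 fell in KI. Aktip, an E2-like protein without the catalytic cysteine, passed 1 log2 unit in KI, from 39.4 ± 2.83 CPM to 15.04 ± 2.07 CPM (-1.39, adjusted p = 0.0399, glmTreat), and was at 15.8 ± 1.35 CPM in KO, where it fell without passing that test (-1.31, adjusted p = 0.176, glmTreat).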

How the data were processed

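RNA of RS was sequenced by the authors, who trimmed the reads with cutadapt 3.4, aligned them with STAR 2.7.8a to GRCm38 and counted uniquely assigned reads by strand with featureCounts 2.0.1 on the genes of GENCODE M18, without removing duplicates. The deposited values are raw counts per gene and were used unchanged, and 0 columns were left without a library. Genotypes came from the labels. Symbols came from GENCODE M21, which matched 54079 of 54232 identifiers. The members and gene lists were chosen with earlier results of these data known.

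Counts were filtered with filterByExpr, scaled with TMM factors and fitted with edgeR 4.0.16 (limma 3.58.1, R 4.3.3) in one quasi-likelihood model of genotype over all 18 libraries. Changes of any amount were tested with glmQLFTest and changes past 1 log2 unit with glmTreat, two-sided, with Benjamini-Hochberg adjustment over all 21058 genes and an adjusted p threshold of 0.1. The code was tested on simulated counts. CPM used the TMM factors, and log2 CPM a prior count of 2. A floor of 3 counts was set for all libraries, whose totals ran from 18766971 to 26776555 counts. It covers counting error only, since reads copied by PCR are not independent molecules.

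Values are given by library for Ube2k, for members past 1 log2 unit, for the 4 largest rises and falls in each mutant without overlap with WT, and for the 3 members most and the 2 least correlated with Ube2k. Other members are given by level or fold change, and genes of the lists are named where they passed 1 log2 unit. Alternatives were DESeq2 1.42.0, other scaling factors, other filters, fewer genotypes, a replicate block, summed close libraries, a stricter threshold and leaving out each library. Leaving out WT 5 and WT 6 together was chosen after seeing the data. Figures were drawn with matplotlib 3.10.9. Protein sequences and miRNA levels were not analysed here, and 1 member and 1 gene of the lists, which remain in every count, are not reported by name here.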

Additional observations from a re-analysis of the deposited data

Results flagged for a closer look

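A library was singled out where its gap to the nearest other library of its genotype took up more of the range of the 6 libraries than Dixon's critical value allows, a test that chance alone meets in about 1 of 20 groups. Of 108 groups examined, 9 met it. In the library labelled KI 4, Ddx25 was at 56.9 CPM, beside 0.0456 to 0.519 CPM in the other KI libraries. The same library was the highest KI library for Ube2r2, at 21.2 CPM beside 16.3 to 17.2 CPM, for Ube2e3, at 16.2 CPM beside 9.58 to 12.1 CPM, and for Ube2dnl2, at 11.3 CPM beside 7.03 to 8.36 CPM. KO 6 was the highest KO library for Ube2c, at 64.7 CPM beside 39.1 to 48.3 CPM, KO 2 for Ube2h, at 114 CPM beside 85.2 to 93.1 CPM, and KO 3 for Ube2cbp, at 1.95 CPM beside 0.600 to 1.08 CPM. KI 3 was the lowest KI library for Ube2dnl1, at 2.65 CPM beside 4.46 to 5.54 CPM, and WT 5 the lowest WT library for Ube2d1, at 0.284 CPM beside 0.679 to 0.903 CPM.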

How the results depend on the processing

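Ube2k was called lower past 1 log2 unit in both mutants under every alternative run, with log2 fold changes from -2.11 to -1.92 in KO and from -2.17 to -1.99 in KI and adjusted p of at most 0.00274 and 0.00302. Leaving out one library at a time gave 3 to 5 members higher and 9 to 10 lower by any amount in KO, and 4 to 5 higher and 9 to 11 lower in KI. Past 1 log2 unit it gave 1 member lower in KO and 1 to 2 in KI, the other being Ube2j1 without KO 3. Without KO 3, 5 members were called higher in KO, Ube2u and Ube2dnl1 being the added ones (0.51 and 0.49, adjusted p = 0.0387 and 0.0751), and without WT 3 Ube2cbp was called higher in KI (0.79, adjusted p = 0.0879). Summing close libraries gave 8 lower in KO and 7 in KI. Ube2z changed its call: in KO it was called with at least 10 counts in every library (0.23, adjusted p = 0.0920) and without KO 1 or KO 5, and in KI it was not called without a filter (0.31, adjusted p = 0.129) or with close libraries summed (0.28, adjusted p = 0.304), and the cause was not tested. No direction of a named member reversed. Without division by length Ube2k ranked 4 in WT, 15 in KO and 15 in KI, by construction of that scale, and leaving out single libraries gave ranks of 7 to 8 in WT, 18 to 20 in KO and 19 to 19 in KI. In KI against KO no alternative called a member.

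Libraries with the same replicate number did not deviate together: their correlations ran from -0.44 to 0.48, and the best match carried the same number in 4 of 18 cases. The numbers were therefore not taken as pairs. With the replicate number as a block, the calls were 3 higher and 10 lower in KO and 4 higher and 10 lower in KI, and Ube2k was at -2.01 and -2.12. Without WT 5 and WT 6, an omission chosen after seeing the data, 3 rose and 9 fell in KO and 5 rose and 10 fell in KI. Members at a few counts, such as Ube2d1, have standard errors of 0.32 log2 units. Ube2cbp, at 0.61 with an SE of 0.30 in KI, was not called (adjusted p = 0.152, edgeR). A change of that size can thus go uncalled in such members.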
